A study of Mus musculus with 2 samples.

Results

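Collagen genes were followed in RNA of mouse medullary thymic epithelial cells (mTEC), which show self antigens of many organs to developing T cells in the thymus. Every gene whose symbol has the form Col, a type number, the letter a and a chain number, and which was listed in both libraries, was taken. This gave 43 collagen genes among 23123 genes. The mTEChi library came from mTEC with high surface MHC class II and the mTEClo library from mTEC with low surface MHC class II, both from WT B6 mice whose thymi were pooled before sorting. The animals' age and number are not given in the labels. With 1 library in each group nothing could be tested over replicates, and all values are descriptions of these 2 libraries. Sequencing was paired-end with reads of 100 bases for mTEChi and single-end with reads of 50 bases for mTEClo, so the effect of library type and that of the sort cannot be told apart. RPKM, a read count scaled by transcript length and library depth, is the authors' deposited unit and allows levels of genes of different length to be compared. The depth recovered from the values was 5.51 times as large in the mTEChi as in the mTEClo library, so low values are less precise in mTEClo.

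Collagens are secreted or membrane-bound proteins whose chains wind into a triple helix built on glycine repeats. Fibrillar collagens form the rope-like fibres of connective tissue and are made mainly by fibroblasts and, in cartilage, by chondrocytes. Type IV collagen is the network that carries basement membranes, the sheets under epithelia and around vessels, and types XV and XVIII sit in or next to them. Type XVII collagen is a transmembrane protein of the hemidesmosome, which ties basal epithelial cells to the basement membrane, and type VII forms the anchoring fibrils below it. In the thymus, collagens are known chiefly from the capsule, the septa and the walls of vessels, and epithelial cells contribute to the basement membrane.

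In the mTEChi library, collagen transcripts as a whole were much scarcer than in the mTEClo library, and the classes differed. Summed over the 43 genes, collagens had 138 RPKM in the mTEChi and 872 RPKM in the mTEClo library. The chains of type VI collagen, the interstitial chains Col1a1, Col1a2 and Col3a1, and the main basement membrane chains Col4a1 and Col4a2 were all lower in the mTEChi library. Col17a1 of the hemidesmosome went the other way, with 9.88 RPKM in the mTEChi and 2.20 RPKM in the mTEClo library. Col10a1, the collagen of hypertrophic cartilage, was listed at 5.41 RPKM in the mTEChi library and at 0 in the mTEClo library. A 0 in that library can be a failed estimate, as described below.

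The promoters of a few members are shown first, since several collagen genes are neighbours and 1 pair shares its start region. RefSeq promoter windows, which run from 250 bases before to 50 bases after the annotated start on build GRCm38.p6, matched 35 of the 43 genes by symbol. The authors' files were made on build mm9, so these coordinates do not apply to their alignment. Col4a1 and Col4a2, the chains of the common type IV collagen, start head to head on opposite strands of chromosome 8. Their windows share 78 bases, chr8:11312777-11312854, which are printed in capitals and are the reverse complement of each other.
Col4a1 (chr8:11312777-11313076, - strand): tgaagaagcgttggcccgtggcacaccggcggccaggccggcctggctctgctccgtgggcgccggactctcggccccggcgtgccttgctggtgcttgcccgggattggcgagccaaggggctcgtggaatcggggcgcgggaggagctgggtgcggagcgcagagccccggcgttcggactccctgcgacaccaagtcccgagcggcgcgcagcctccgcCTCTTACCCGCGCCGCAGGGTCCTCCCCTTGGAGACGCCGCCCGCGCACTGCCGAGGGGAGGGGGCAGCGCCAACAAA
Col4a2 (chr8:11312555-11312854, + strand): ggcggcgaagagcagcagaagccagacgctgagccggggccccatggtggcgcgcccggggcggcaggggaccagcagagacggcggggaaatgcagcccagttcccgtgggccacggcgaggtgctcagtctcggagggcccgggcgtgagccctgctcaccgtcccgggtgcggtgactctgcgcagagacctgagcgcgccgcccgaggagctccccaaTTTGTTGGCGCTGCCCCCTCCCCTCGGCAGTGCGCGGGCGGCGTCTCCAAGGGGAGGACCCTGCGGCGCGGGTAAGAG
In the last 150 bases before the start of 5 further members, capitals mark matches on either strand to the CCAAT box (CCAAT), the TATA box (searched as TATAAA) and the GC box (searched as GGGCGG). Col1a2, Col3a1 and Col6a1 stand for interstitial chains that were far lower in the mTEChi library, Col17a1 for the hemidesmosome, and Col10a1 for a member listed at 0 in the mTEClo library.
Col1a2 (chr6:4505468-4505617, + strand): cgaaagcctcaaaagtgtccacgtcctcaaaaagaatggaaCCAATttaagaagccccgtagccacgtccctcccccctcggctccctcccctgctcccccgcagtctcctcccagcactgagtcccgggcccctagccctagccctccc
Col3a1 (chr1:45311388-45311537, + strand): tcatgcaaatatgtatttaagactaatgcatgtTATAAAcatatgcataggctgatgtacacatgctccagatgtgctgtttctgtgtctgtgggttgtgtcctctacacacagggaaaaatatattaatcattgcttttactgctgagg
Col6a1 (chr10:76726045-76726194, - strand): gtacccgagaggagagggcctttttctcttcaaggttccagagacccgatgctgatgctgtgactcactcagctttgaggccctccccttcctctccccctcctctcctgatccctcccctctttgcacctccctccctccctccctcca
Col17a1 (chr19:47692043-47692192, - strand): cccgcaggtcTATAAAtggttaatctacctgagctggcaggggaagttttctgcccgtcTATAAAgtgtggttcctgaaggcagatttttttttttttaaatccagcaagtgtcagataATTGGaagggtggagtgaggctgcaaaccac
Col10a1 (chr10:34389831-34389980, + strand): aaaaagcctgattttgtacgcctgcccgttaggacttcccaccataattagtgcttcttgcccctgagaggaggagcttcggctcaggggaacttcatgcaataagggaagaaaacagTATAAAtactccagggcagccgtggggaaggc
Over the whole windows, the GC box was found in 22 of the 35 collagen genes (62.9%) and in 38.2% of 27025 genes with a window. These 27025 genes were not limited to the 23123 genes of the libraries and were not matched for GC content. The CCAAT box was found in 13 of 35 (37.1%) against 41.1% of all genes, and the TATA box in 5 of 35 (14.3%) against 15.7%. Among the 15 collagens with a window that were at least 2-fold lower in the mTEChi library, 11 held the GC box, 7 the CCAAT box and 1, Col3a1, the TATA box. The CCAAT box on the opposite strand can share its last letters with a GC box. A match is a run of letters, not a bound site, and was counted at any place in the window. The TATAAA match lay 117 bases before the start in Col3a1 and 32 bases before it in Col10a1.

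Changes are given as log2((mTEChi + 1)/(mTEClo x 1.21 + 1)) on RPKM. The factor of 1.21 (0.27 on the log2 scale) sets the median ratio of 5167 well-expressed genes to 0, and the 1 RPKM added makes changes of weakly expressed genes look smaller. A gene was kept at a mean of 0.5 RPKM or more and called at a change of 2-fold, which is 1 on the log2 scale. Of the 43 collagens, 33 were kept and 10 were below this filter. Among the kept collagens 18 were at least 2-fold lower in the mTEChi library, or 54.5%, where the background over all 15590 kept genes was 9.35%. The collagens at least 2-fold higher were 3, or 9.09%, where the background was 16.1%. Of these 3, Col9a1 and Col10a1 were listed at 0 in the mTEClo library and so passed the filter, and by construction the threshold, through the mTEChi library alone. Leaving out genes at 0 in either library, 18 of 31 collagens were lower, with a background of 9.85%, and 1 was higher, with a background of 11.4%. A change below 0 was found in 28 of the 33 kept collagens and in 48.5% of all kept genes. The median log2 change of the kept collagens was -1.37, and that of all kept genes was 0.03.

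Restricted to a mean of 5 RPKM or more, 16 of 18 collagens were lower in the mTEChi library, with a background of 9.87%. Col17a1 was the 1 higher member at this level, with a background of 12.1%, and Col27a1 the 1 member within 2-fold. Among all kept collagens above 0 in both libraries, those closest to the threshold for lower calls were Col6a4 just past it (-1.16) and Col26a1 just short of it (-0.93). All 18 lower collagens kept a change below 0 under each of the alternative settings computed for them, and 13 stayed past 2-fold in all of them. With 5 RPKM added in place of 1, Col2a1, Col5a1, Col5a3, Col6a4, Col9a1, Col16a1 and Col17a1 no longer passed 2-fold, and the collagen median was -0.67.

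**Figure D1:**
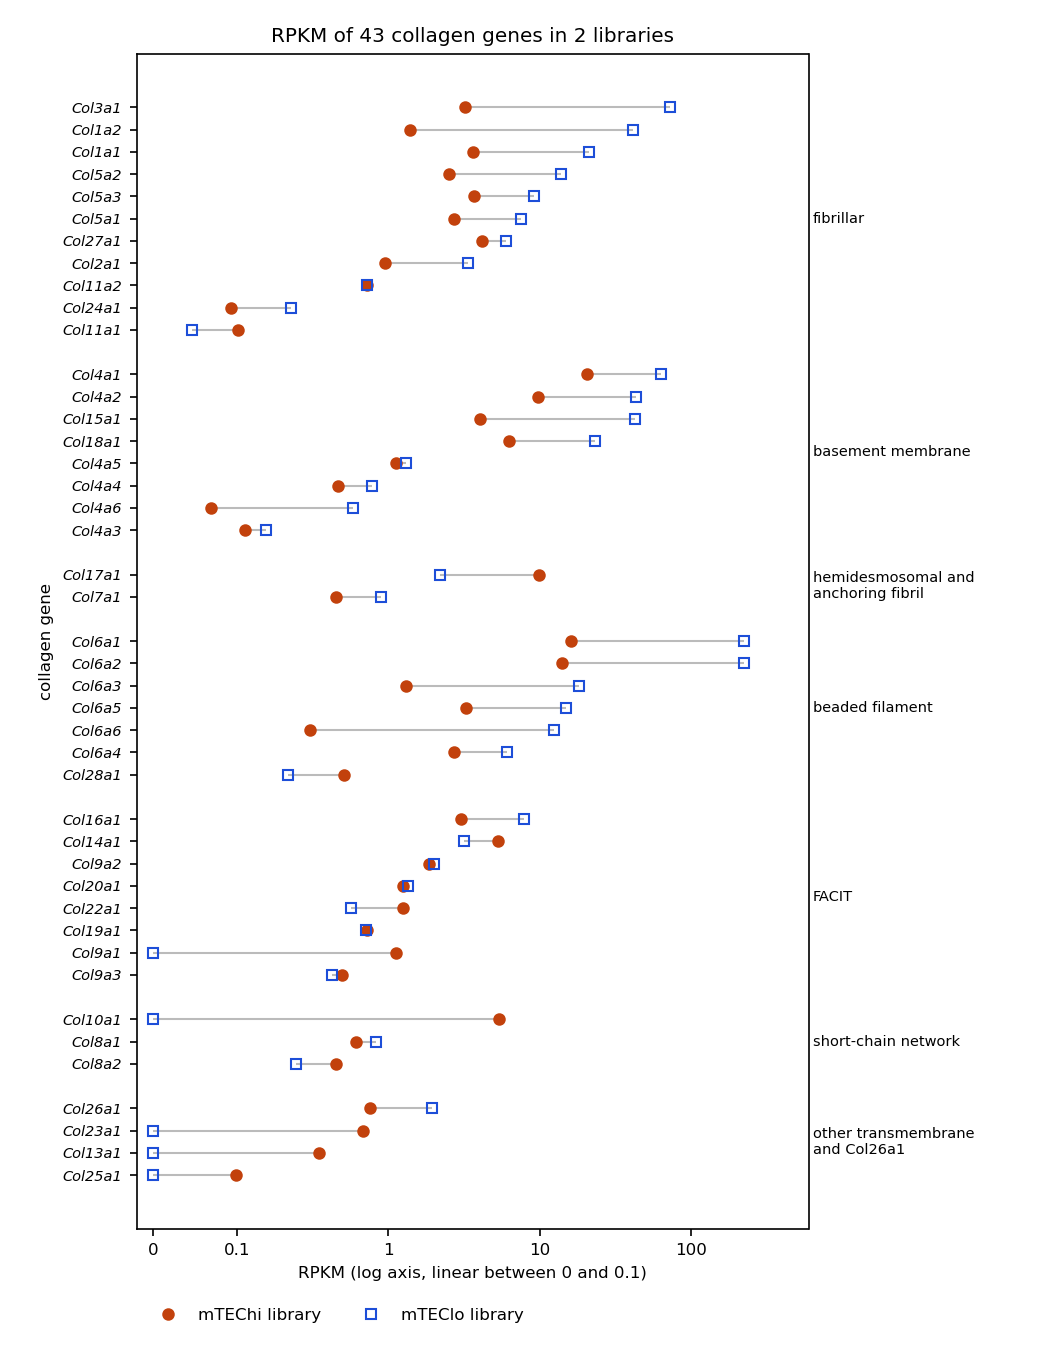
RPKM of the 43 collagen genes in the mTEChi library (filled circles) and the mTEClo library (open squares), grouped by class, on a log axis that is linear between 0 and 0.1; a grey line joins the 2 values of a gene. Most fibrillar, basement membrane and beaded filament members lie lower in the mTEChi library, Col17a1 lies higher, and 5 members are listed at 0 in the mTEClo library.

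Markers of other cell types went in both directions. Of 8 endothelial markers, 8 were at least 2-fold lower in the mTEChi library (background 9.35%). Their summed level was 17.5 RPKM in the mTEChi and 155 RPKM in the mTEClo library. Of 10 fibroblast and pericyte markers, 7 were lower (background 9.35%) and 1, Rgs5 (1.07), was higher (background 16.1%). The 7 lower ones were Postn (-5.77), Lum (-4.81), Dcn (-4.03), Acta2 (-2.86), Pdgfra (-2.37), Mfap5 (-1.19) and Thy1 (-1.06). Pdgfrb (-0.21) and Cspg4 (-0.15) stayed within 2-fold. The median log2 change over all 10 was -1.78. The list summed to 202 RPKM in the mTEChi and 836 RPKM in the mTEClo library. Lum, a matrix proteoglycan of fibroblasts, was at 2.31 RPKM in the mTEChi and 75.8 RPKM in the mTEClo library. Pdgfrb, a growth factor receptor gene of pericytes and fibroblasts singled out after its values were seen, was at 4.03 RPKM in mTEChi and 3.98 RPKM in mTEClo. No marker of either list was at 0 in either library. The 6 epithelial markers summed to 2975 RPKM in the mTEChi and 3020 RPKM in the mTEClo library, and of these Krt5 (-1.05) and Krt14 (-1.57), keratins of basal epithelial cells, were lower in mTEChi. Epcam, an epithelial adhesion molecule gene, was at 198 RPKM in mTEChi and 127 RPKM in mTEClo. Of 4 haematopoietic markers 3 were higher in the mTEChi library (background 16.1%) and 0 lower (background 9.35%). Their sum was 1438 RPKM in the mTEChi and 279 RPKM in the mTEClo library. Most of it was Cd52, at 1175 RPKM in the mTEChi and 198 RPKM in the mTEClo library. Ptprc stayed within 2-fold, at 1.17 RPKM in mTEChi and 0.989 RPKM in mTEClo (-0.02). All 7 MHC class II and mature mTEC markers were higher in the mTEChi library (background 16.1%). They summed to 17295 RPKM there and 5533 RPKM in the mTEClo library. The cells were sorted on surface MHC class II, so the direction of the MHC class II genes in this list was not independent of the sort. The part of the other cell types in the collagen changes was not tested, and in bulk libraries fewer cells of a type and less RNA per cell cannot be told apart.

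Fibrillar collagens had 7 of 9 kept members at least 2-fold lower in the mTEChi library (background 9.35%) and 0 higher (background 16.1%). Their median log2 change was -1.45. Col3a1, the homotrimeric type III chain of soft connective tissue, was at 3.18 RPKM in the mTEChi and 72.5 RPKM in the mTEClo library, a log2 change of -4.40. Without the added RPKM its log2 ratio was -4.78, with a 95% counting interval from -4.85 to -4.71. Col1a2, a chain of type I collagen, was at 1.39 RPKM in the mTEChi and 41.2 RPKM in the mTEClo library, a log2 change of -4.41, the largest decrease of the family on this scale. Its partner chain Col1a1 was at 3.65 RPKM in the mTEChi and 21.3 RPKM in the mTEClo library, a log2 change of -2.52. The 2 chains of type I collagen were thus both lower but by unequal amounts, 36.0-fold for Col1a2 and 7.05-fold for Col1a1 on scaled RPKM with nothing added.

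The type V chains, which regulate the width of type I fibrils, were all lower in the mTEChi library. Col5a2 was at 2.52 RPKM in the mTEChi and 13.8 RPKM in the mTEClo library (-2.33), Col5a1 at 2.71 RPKM in mTEChi and 7.57 RPKM in mTEClo (-1.45) and Col5a3 at 3.68 RPKM in mTEChi and 9.17 RPKM in mTEClo (-1.37). Col2a1, the main chain of cartilage fibrils, was at 0.952 RPKM in the mTEChi and 3.37 RPKM in the mTEClo library (-1.38), and its 2 transcript lines gave -1.38 and -1.35. Col27a1, a cartilage fibrillar chain, was at 4.16 RPKM in the mTEChi and 5.99 RPKM in the mTEClo library, which did not pass 2-fold (-0.67). Col11a2 was at 0.718 RPKM in mTEChi and 0.726 RPKM in mTEClo (-0.13), with a counting interval of the log2 ratio from -0.62 to 0.04 that spans 0. The 2 fibrillar members below the filter were Col24a1, with 0.0927 RPKM in the mTEChi and 0.228 RPKM in the mTEClo library, and Col11a1, with 0.102 RPKM in mTEChi and 0.0461 RPKM in mTEClo.

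Basement membrane collagens had 4 of 6 kept members lower in the mTEChi library (background 9.35%) and 0 higher (background 16.1%). Their median log2 change was -1.93. Col4a1 was at 20.5 RPKM in the mTEChi library, the highest collagen there, and at 63.9 RPKM in the mTEClo library, a log2 change of -1.86. Col4a2, which shares its start region, was at 9.78 RPKM in the mTEChi and 43.1 RPKM in the mTEClo library, a log2 change of -2.30. Col15a1, found where basement membranes meet fibrils, was lower by a larger amount, with 4.03 RPKM in the mTEChi and 42.6 RPKM in the mTEClo library (-3.38). Col18a1, the precursor of endostatin, was at 6.29 RPKM in the mTEChi and 23.2 RPKM in the mTEClo library (-1.99), and its other transcript line gave -1.98. Col4a1 ranked 1 and Col4a2 ranked 5 of 43 collagens in the mTEChi library, against ranks 4 and 5 in the mTEClo library.

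The remaining type IV chains, which form the specialised networks of kidney, lung and smooth muscle, were low in both libraries. Col4a5 was at 1.11 RPKM in the mTEChi and 1.31 RPKM in the mTEClo library (-0.29), and Col4a4 at 0.464 RPKM in mTEChi and 0.772 RPKM in mTEClo (-0.40). Col4a6 was below the filter, with 0.0681 RPKM in the mTEChi and 0.583 RPKM in the mTEClo library, as was Col4a3 with 0.113 RPKM in mTEChi and 0.156 RPKM in mTEClo. From the recovered reads, the Col4a6 values stand for about 52 reads in the mTEChi and 81 reads in the mTEClo library. Its log2 ratio without the added RPKM was -3.37, with a counting interval from -3.91 to -2.86, while its change with 1 RPKM added was -0.67.

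The hemidesmosomal member Col17a1, the bullous pemphigoid antigen BP180, was higher in the mTEChi library by 1.57 on the log2 scale. Its log2 ratio without the added RPKM was 1.90, with a counting interval from 1.71 to 2.08, or 3.72-fold. Col17a1 ranked 4 of 43 collagens in the mTEChi library and 21 in the mTEClo library. With 5 RPKM added in place of 1 its change was 0.96, just short of 2-fold. Col7a1, which builds the anchoring fibrils, was at 0.449 RPKM in the mTEChi and 0.895 RPKM in the mTEClo library, a log2 change of -0.52. With 0.1 RPKM added this was -1.11, past 2-fold.

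Of 8 other hemidesmosome and anchoring genes, 4 were at least 2-fold lower in the mTEChi library (background 9.35%) and 0 were higher (background 16.1%), with a median log2 change of -1.07. Lamb3, a chain of laminin-332, was at 9.22 RPKM in the mTEChi and 30.9 RPKM in the mTEClo library (-1.91). Itgb4, the hemidesmosomal integrin chain, was at 12.3 RPKM in the mTEChi and 24.96 RPKM in the mTEClo library (-1.22), and Cd151, its tetraspanin partner, at 30.3 RPKM in mTEChi and 62.2 RPKM in mTEClo (-1.28). Dst, whose product BP230 links keratins to the hemidesmosome, gave -1.26. Itga6, the partner of Itgb4, was at 24.9 RPKM in the mTEChi and 22.3 RPKM in the mTEClo library (-0.11). Across all settings the number of lower partners ran from 1 to 5.

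**Figure D2:**
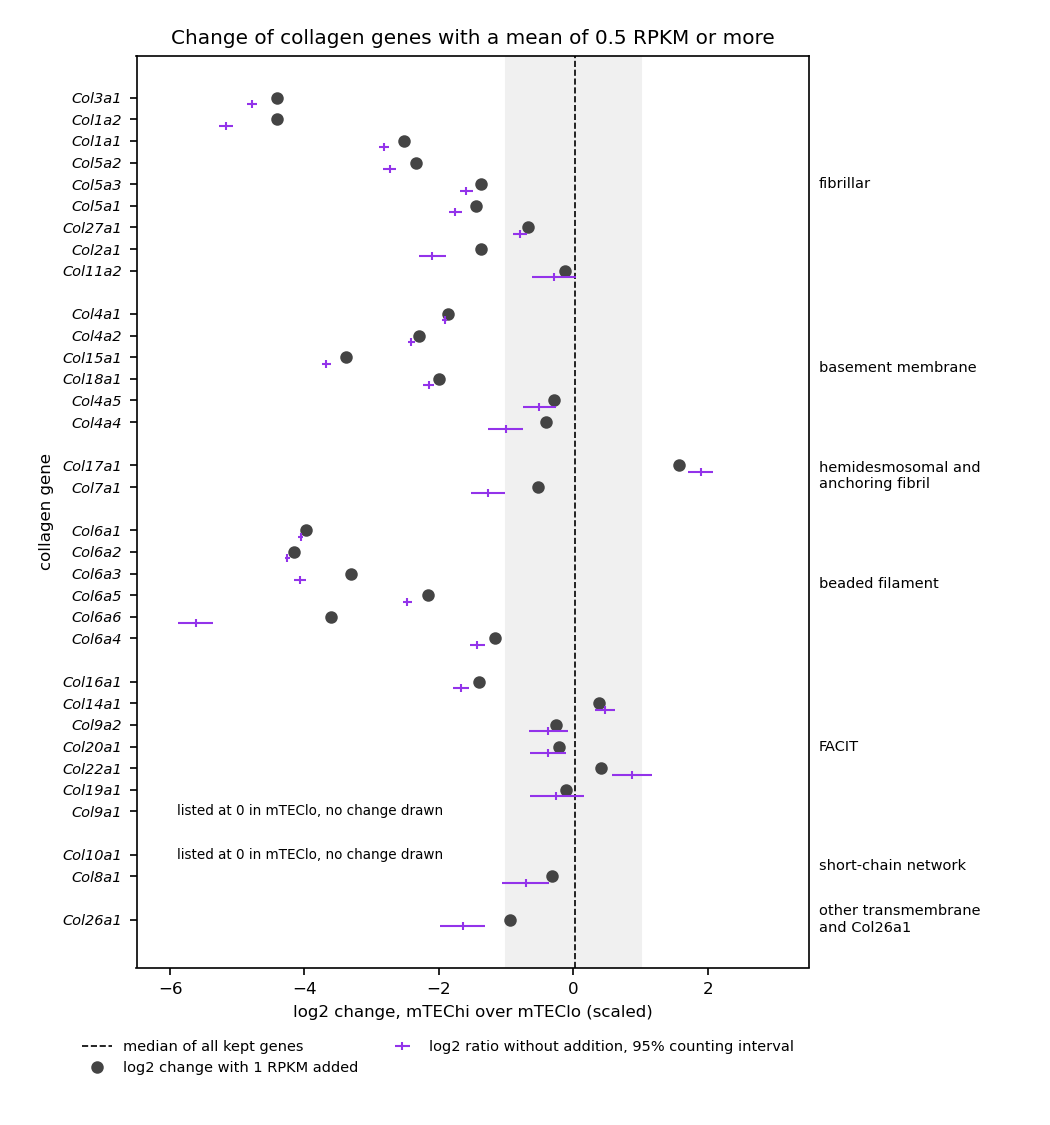
Log2 change (mTEChi over scaled mTEClo) of the kept collagens with 1 RPKM added (circles), and the log2 ratio without addition with its 95% counting interval (crosses with bars); grey marks changes under 2-fold and the dashed line the median of all kept genes at 0.03. Among the circles Col1a2, Col3a1, Col6a2 and Col6a1 lie farthest to the left, and Col17a1 is the 1 member above 0 in both libraries that lies past 2-fold on the right.

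Beaded filament collagens include type VI, the pericellular microfibril found around many stromal cells. This class had 6 of 6 kept members lower in the mTEChi library (background 9.35%). Its median log2 change was -3.46, the lowest of the classes with more than 2 kept members. Col6a1 was at 16.2 RPKM in the mTEChi and 223 RPKM in the mTEClo library (-3.97). Col6a2 was at 14.2 RPKM in the mTEChi and 224 RPKM in the mTEClo library (-4.16). Col6a3, whose long chain joins these 2 in the classical type VI trimer, was at 1.30 RPKM in the mTEChi and 18.1 RPKM in the mTEClo library (-3.31). On scaled RPKM with nothing added the decreases of these chains were 16.6-fold, 19.1-fold and 16.8-fold, a narrow range. Col6a1 and Col6a2 ranked 2 and 3 of the collagens in the mTEChi library, behind Col4a1, and 2 and 1 in the mTEClo library.

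The alternative type VI chains, which can take the place of Col6a3, varied more. Col6a6 was at 0.304 RPKM in the mTEChi and 12.3 RPKM in the mTEClo library, a log2 change of -3.61, or 49.1-fold on scaled RPKM with nothing added, the largest fold of any kept collagen. Its other transcript line gave -3.40. Col6a5 was at 3.27 RPKM in the mTEChi and 14.98 RPKM in the mTEClo library (-2.16), and Col6a4 at 2.72 RPKM in mTEChi and 6.05 RPKM in mTEClo (-1.16). Without scaling Col6a4 did not pass 2-fold (-0.92). In the mTEChi library Col6a5 and Col6a4 thus stood above Col6a3, while in the mTEClo library Col6a3 was the highest of the long chains. Col28a1, a related chain, was below the filter with 0.511 RPKM in the mTEChi and 0.215 RPKM in the mTEClo library.

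The fibril-associated collagens (FACIT), which decorate fibrils without forming them, had 1 of 7 kept members lower, 1 higher and 5 within 2-fold. These are 14.3% in each direction, near the background of 9.35% lower and 16.1% higher, and the higher one is Col9a1, listed at 0 in the mTEClo library. Col16a1 was the lower one, with 3.01 RPKM in the mTEChi and 7.92 RPKM in the mTEClo library (-1.40). Col14a1 was at 5.30 RPKM in the mTEChi and 3.17 RPKM in the mTEClo library (0.38), with a counting interval of the log2 ratio from 0.32 to 0.63. Col22a1, a collagen of muscle-tendon junctions, was at 1.24 RPKM in the mTEChi and 0.562 RPKM in the mTEClo library (0.41). Col9a2 was at 1.85 RPKM in mTEChi and 1.99 RPKM in mTEClo (-0.25), Col20a1 at 1.25 RPKM in mTEChi and 1.34 RPKM in mTEClo (-0.22) and Col19a1 at 0.718 RPKM in mTEChi and 0.708 RPKM in mTEClo (-0.11). Col9a3, at 0.493 RPKM in the mTEChi and 0.420 RPKM in the mTEClo library, was below the filter.

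In the mTEChi library 0 of 43 collagens were listed at 0, and in the mTEClo library 5 of 43. Of these 5, Col10a1 was highest in the mTEChi library, at 5.41 RPKM in the mTEChi library, about 1945 reads. After correction for both depth (5.51) and the scaling of 1.21, these would correspond to 292 reads in the mTEClo library. Col9a1, a cartilage FACIT chain, was at 1.12 RPKM in the mTEChi library, which corresponds in the same way to 74.2 reads in the mTEClo library. The other 3 were the transmembrane collagens Col23a1 (0.676 RPKM in the mTEChi library), Col13a1 (0.348 RPKM) and Col25a1 (0.0982 RPKM), all below the filter. The ribosomal protein gene Rps21, which every cell uses, was also listed at 0 in the mTEClo library and at 144 RPKM in the mTEChi library. A 0 in the mTEClo library can thus be a failed estimate. No fold is given for these genes, and the calls of Col9a1 and Col10a1 as higher rest on such a 0. The rest of the short-chain members and Col26a1 were low, with Col8a1, a collagen of vessel walls, at 0.608 RPKM in the mTEChi and 0.824 RPKM in the mTEClo library (-0.31). Col8a2 was at 0.450 RPKM in mTEChi and 0.243 RPKM in mTEClo (below the filter) and Col26a1 at 0.753 RPKM in mTEChi and 1.95 RPKM in mTEClo (-0.93).

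The make-up of collagen RNA differed between the libraries. Beaded filament chains made up 28.0% of summed collagen RPKM in the mTEChi and 57.2% in the mTEClo library. Basement membrane chains made up 30.8% in the mTEChi and 20.1% in the mTEClo library, and fibrillar chains 16.8% in the mTEChi and 20.2% in the mTEClo library. Col17a1 and Col7a1 together made up 7.502% in the mTEChi and 0.354% in the mTEClo library. FACIT members made up 10.9% in the mTEChi and 1.85% in the mTEClo library, with sums of 14.98 RPKM in the mTEChi and 16.1 RPKM in the mTEClo library. As a share of the RPKM summed over all genes, collagens were 0.0403% in the mTEChi and 0.279% in the mTEClo library.

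**Figure D3:**
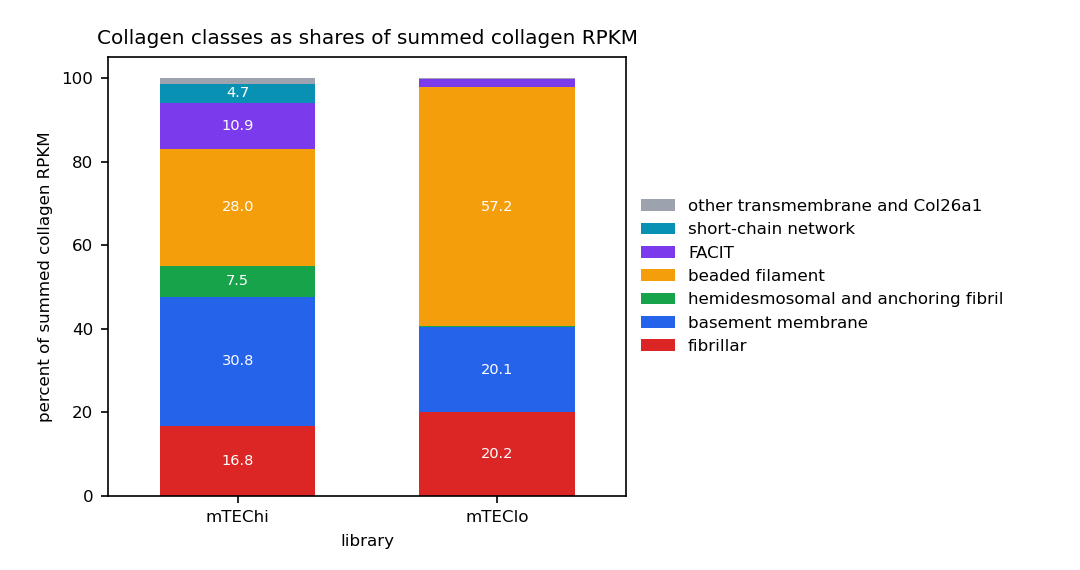
Stacked bars of the share of summed collagen RPKM held by each class in the mTEChi (left) and mTEClo (right) library, with shares over 4% printed in percent. Basement membrane members are the largest class in the mTEChi library at 30.8% and beaded filament members in the mTEClo library at 57.2%.

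Ratios between chains of the same protein were compared within each library, which needs no scaling between libraries. The ratio of Col1a1 to Col1a2 was 2.64 in the mTEChi library (95% counting interval 2.44 to 2.85) and 0.516 in the mTEClo library (0.492 to 0.542). Col5a1 to Col5a2 gave 1.08 in the mTEChi library (1.01 to 1.14) and 0.547 in the mTEClo library (0.509 to 0.587). For Col4a1 to Col4a2 the ratio was 2.10 in the mTEChi library (2.04 to 2.16) and 1.48 in the mTEClo library (1.44 to 1.53). In these pairs the intervals of the libraries did not overlap. How often the intervals of other gene pairs fail to overlap was not computed.

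The ratios of the type VI chains lay closer together. Col6a1 to Col6a2 was 1.15 in the mTEChi library (1.11 to 1.19) and 0.999 in the mTEClo library (0.978 to 1.02), a shift of much smaller size. These intervals did not overlap either. Col6a3 to Col6a1 was 0.0804 in the mTEChi library (0.0758 to 0.0852) and 0.0812 in the mTEClo library (0.0782 to 0.0842), with overlapping intervals. Between proteins, Col3a1 to Col1a1 was 0.872 in the mTEChi library (0.822 to 0.925) and 3.41 in the mTEClo library (3.26 to 3.56), again without overlap. Intervals cover counting error only, from reads recovered from RPKM and transcript length, and whether mates of a pair were counted apart is not given in the labels.

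**Figure D4:**
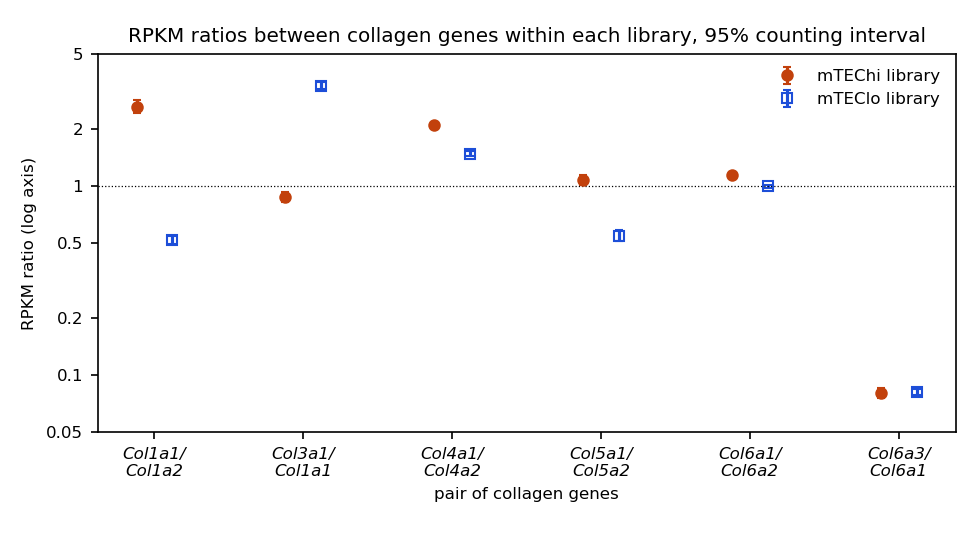
RPKM ratio of pairs of collagen genes (log axis) within the mTEChi library (circles) and the mTEClo library (squares), with 95% counting intervals. The ratio of Col1a1 to Col1a2 is 2.64 in the mTEChi and 0.516 in the mTEClo library, while Col6a3 to Col6a1 is 0.0804 in the mTEChi and 0.0812 in the mTEClo library.

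In the RefSeq gene table, 8 pairs of collagen genes are next to each other among protein-coding genes, and both members were kept in 6 of these pairs. Both were at least 2-fold lower in 5 of the 6: Col4a1 with Col4a2, Col6a1 with Col6a2, Col3a1 with Col5a2, Col6a6 with Col6a5, and Col6a5 with Col6a4. The exception was Col9a1, listed at 0 in the mTEClo library, with Col19a1 (-0.11). Single genes were lower in 54.5% of kept collagens and 9.35% of all kept genes. Col6a5 is counted with Col6a6 and again with Col6a4, and beaded filament collagens had 6 of 6 kept members lower. Whether neighbours changed together more often than other collagens was not tested. Transcript length and GC content showed little relation to the change over the 33 kept collagens, with Spearman's rho of -0.06 for length and -0.12 for GC content, beside -0.10 and -0.09 over 15417 kept genes with a length. The kept collagens had a median transcript length of 5564 bases and a median GC content of 56.4%, against 2627 bases and 50.8% for all kept genes.

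Genes that make and secrete collagen were more often lower than higher in the mTEChi library. Of 30 kept biosynthesis and assembly genes 16 were at least 2-fold lower (53.3%, background 9.35%) and 1 higher (3.33%, background 16.1%), with a median log2 change of -1.08. Serpinh1, the collagen chaperone HSP47, was at 25.05 RPKM in the mTEChi and 265 RPKM in the mTEClo library (-3.62). Sparc, a collagen-binding matrix protein, was at 29.6 RPKM in the mTEChi and 254 RPKM in the mTEClo library (-3.33). The hydroxylase family gene P3h3 (-2.87), the procollagen C-proteinase enhancer gene Pcolce (-2.61), the chaperone gene Fkbp10 (-2.52), the cross-linking oxidase gene Lox (-2.44) and the lysyl hydroxylase genes Plod1 (-2.42) and Plod2 (-2.13) were lower as well.

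Other abundant members stayed within 2-fold. P4hb, protein disulfide isomerase as well as the beta subunit of prolyl 4-hydroxylase, was at 190 RPKM in the mTEChi and 130 RPKM in the mTEClo library (0.27). Ppib, the cyclophilin B gene, was at 162 RPKM in the mTEChi and 219 RPKM in the mTEClo library (-0.70). Pcolce2, a second procollagen C-proteinase enhancer, was the 1 higher member, with 7.04 RPKM in the mTEChi and 2.08 RPKM in the mTEClo library (1.195). Pcolce was at 7.64 RPKM in mTEChi and 42.9 RPKM in mTEClo.

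Basement membrane partners of type IV collagen had 9 of 10 kept members at least 2-fold lower in the mTEChi library (background 9.35%) and 0 higher (background 16.1%), with a median log2 change of -1.84. Lamc1 (-2.34), Lamb1 (-2.32), Lama2 (-2.05) and Lamb2 (-1.86), all laminin chains, were lower, as were Hspg2, the perlecan gene (-2.02), Nid1, the nidogen-1 gene that links laminin to type IV collagen (-1.81), Agrn, the agrin gene (-1.50), and Lama4 (-1.41). Lamb1 was at 8.11 RPKM in the mTEChi and 36.7 RPKM in the mTEClo library. Agrn was at 9.15 RPKM in the mTEChi and 22.9 RPKM in the mTEClo library. The number of lower members ran from 6 to 10 across all settings.

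Collagen receptors had 3 of 6 kept members lower in the mTEChi library (background 9.35%) and 0 higher (background 16.1%), and the number lower ran from 0 to 3 across all settings. Ddr2, the discoidin receptor of mesenchymal cells, was at 0.253 RPKM in the mTEChi and 4.33 RPKM in the mTEClo library (-2.31), and Mrc2, the endocytic collagen receptor, at 0.467 RPKM in mTEChi and 3.22 RPKM in mTEClo (-1.74). Ddr1, the discoidin receptor of epithelia, was at 21.1 RPKM in the mTEChi and 37.4 RPKM in the mTEClo library (-1.06), and Itgb1, the shared beta chain of collagen-binding integrins, at 30.6 RPKM in mTEChi and 46.3 RPKM in mTEClo (-0.85). Genes of collagen breakdown and of its inhibitors had 4 of 13 kept members higher (30.8%, background 16.1%) and 5 lower (38.5%, background 9.35%). Their median was -0.16 and ran from -1.18 at a mean of 5 RPKM or more, with 1 member higher and 5 lower, to 0.25 with matched upper quartiles over genes above 0. It was 0.10 without scaling and -0.50 with genes at 0 in mTEClo left out. Mmp7, the epithelial metalloproteinase matrilysin, was at 44.2 RPKM in the mTEChi and 3.49 RPKM in the mTEClo library (3.11). The stromal metalloproteinase genes Mmp3 and Mmp2 were lower, Mmp3 at 0.581 RPKM in the mTEChi and 16.4 RPKM in the mTEClo library (-3.72) and Mmp2 at 2.89 RPKM in mTEChi and 32.3 RPKM in mTEClo (-3.37). Ctsk, the collagenolytic cathepsin K gene (-2.50), Timp2, an inhibitor gene (-2.03), and Mmp9 (-1.18) were lower, whereas Timp4 (1.39) and Fap (1.09) were higher. Mmp13, the fourth higher member, was listed at 0 in the mTEClo library and at 1.31 RPKM in the mTEChi library. Timp3 was at 80.9 RPKM in the mTEChi and 71.2 RPKM in the mTEClo library (-0.09).

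**Figure D5:**
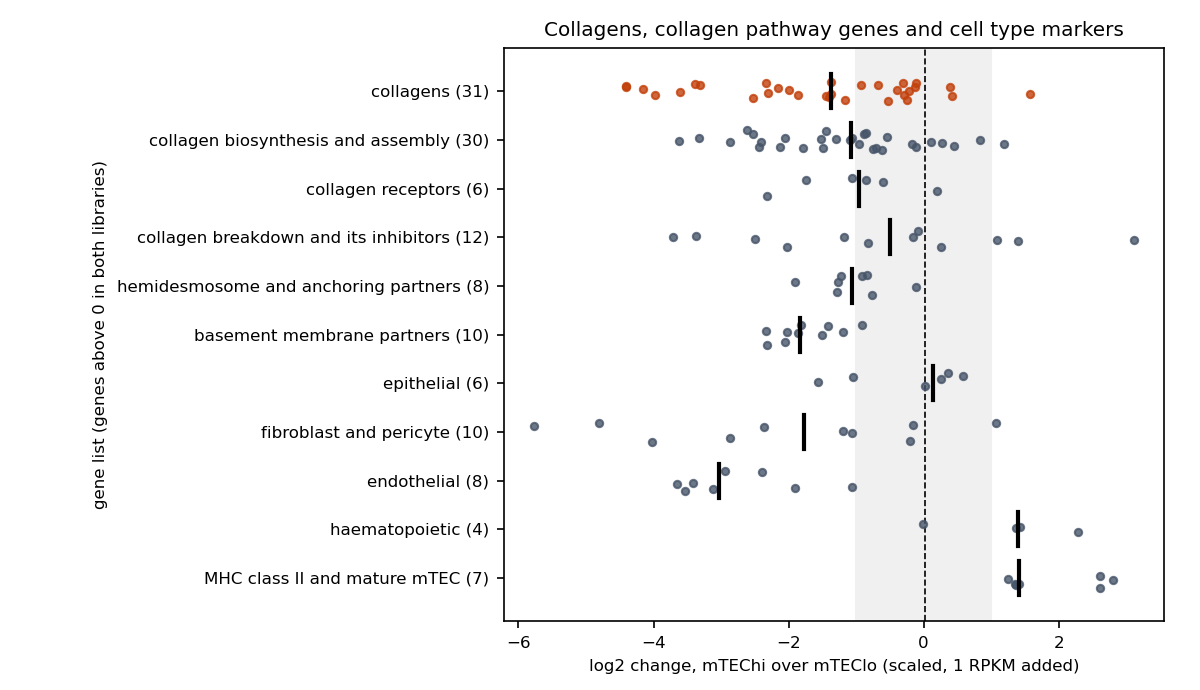
Log2 change (mTEChi over scaled mTEClo, 1 RPKM added) of genes above 0 in both libraries, one point a gene, for collagens, collagen pathway lists and cell type markers; bars are medians over these genes, grey marks changes under 2-fold, and the vertical place of a point within its list carries no value. Collagens, their biosynthesis genes and basement membrane partners have medians of -1.38, -1.08 and -1.84, and endothelial markers -3.03.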

How the data were processed

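Poly(A)-selected, unstranded RNA libraries were made from sorted mTEC, 1 library for each of the 2 groups, per the labels' protocols. The authors deposited RPKM for each RefSeq transcript. CASAVA, Bowtie (1.0.0) and bedtools are listed with build mm9, per the submitters' processing notes, which give no roles. The sources used here do not state how reads of overlapping genes, paralogs or isoforms were assigned.

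Of 30794 lines, 30216 got a symbol from the RefSeq gene table (GRCm38.p6) and 180 from GENCODE, and 398 were left out. A gene's value is its line with the highest mean RPKM, and 37 of the 43 collagens had 1 line. RPKM times GENCODE length rises in steps of 1 read, which gave a depth ratio of 5.51 (mTEChi over mTEClo). Of transcripts with 1 to 10 reads, 75.4% in mTEChi and 65.6% in mTEClo lay within 0.1 of a whole read. Counting intervals (95%, exact binomial on these reads) cover counting error only.

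The members, classes and lists were chosen with earlier results of these data known. All collagens are named. Of the collagen pathway lists, the genes named were mostly members past 2-fold (at most 8) or among the 4 with the highest mean. Members of the cell type marker lists and the collagen-like list were named without this rule, and not all of them are named. Col12a1, Col21a1 and Itga10 were not analysed here. Alternatives were other additions, scalings, filters and line choices, a bound of 3 reads for a 0 and, added after the data were seen, an upper quartile over genes above 0 and leaving out genes at 0. Software was matplotlib 3.10.9, scipy 1.17.1, pandas 2.3.3 and numpy 2.4.6 under Python 3.11.15.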

Additional observations from a re-analysis of the deposited data

How the results depend on the processing

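No setting reversed the median of all, fibrillar, basement membrane or beaded filament collagens, the groups whose medians were recomputed, and the number of collagens at least 2-fold lower ran from 13 to 21. The number higher was 3, or 1 with 5 RPKM added, which was Col10a1, listed at 0 in the mTEClo library. It was also 1, but Col17a1, with a mean of 5 RPKM or more and with genes at 0 in the mTEClo library left out. For all, fibrillar, basement membrane and beaded filament collagens, in this order, the medians were -1.56, -1.99, -2.02 and -4.01 with 0.1 RPKM added and -0.67, -0.89, -1.62 and -2.0 with 5 RPKM added. They were -1.12, -1.21, -1.66 and -3.20 without scaling, -1.23, -1.32, -1.78 and -3.32 with the same RPKM sum, and -0.97, -1.07, -1.50 and -3.05 with the same upper quartile over genes above 0. They were -2.32, -2.33, -2.15 and -3.61 with a mean of 5 RPKM or more, -0.52, -1.38, -1.27 and -3.31 without the filter, -1.64, -2.10, -2.03 and -4.06 with zeros at their bound, and -1.36, -1.63, -1.95 and -3.77 with transcript lines summed. The median of genes of collagen breakdown and of its inhibitors turned to 0.10 in the unscaled values. It turned to 0.25 where upper quartiles over genes above 0 were matched. Under the matched quartiles Col5a3 (-0.97) and Col6a4 (-0.78) no longer passed 2-fold, and the median of all kept genes was 0.37. Col7a1, Col26a1 and, at the bound of 3 reads without addition, Col4a4 (-1.01) passed 2-fold when less than 1 RPKM was added. No paired analysis was possible because each group has 1 library. In the mTEClo library the lower depth widens the intervals of members under about 1 RPKM. The cause of these shifts was not tested.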

Other observations

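Genes outside the collagen family whose proteins carry a collagen-like domain went in both directions. Of 24 such genes, a list made after the collagen values were seen, 19 were kept, 9 were at least 2-fold higher in the mTEChi library (47.4%, against 16.1% of all kept genes) and 5 lower (26.3%, against 9.35%). Among these 9, Mbl2, Fcna and Marco had a mTEClo value of 0 and so passed through the mTEChi library alone. The median log2 change was 0.90 over the 19 kept genes and 0.04 over the 16 above 0 in both libraries. The complement C1q chains were higher, C1qb with 22.3 RPKM in the mTEChi and 2.71 RPKM in the mTEClo library (2.44), C1qa with 11.8 RPKM in mTEChi and 2.57 RPKM in mTEClo (1.64) and C1qc with 11.0 RPKM in mTEChi and 1.63 RPKM in mTEClo (2.01). The lung surfactant lectin gene Sftpd was at 75.3 RPKM in the mTEChi and 9.998 RPKM in the mTEClo library (2.54). The adipocyte hormone gene Adipoq was at 4.86 RPKM in the mTEChi and 0.894 RPKM in the mTEClo library (1.49). In the mTEChi library the mannose-binding lectin gene Mbl2 was at 7.84 RPKM, the ficolin gene Fcna at 4.55 RPKM and the macrophage scavenger receptor gene Marco at 3.51 RPKM, and all of these were listed at 0 in the mTEClo library.

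The lower members included Colec12, a scavenger receptor gene, with 1.71 RPKM in the mTEChi and 19.1 RPKM in the mTEClo library (-3.16), and Emilin1, an elastic fibre gene, with 0.392 RPKM in mTEChi and 8.73 RPKM in mTEClo (-3.05). Colq, which encodes the collagen tail of acetylcholinesterase, was at 39.1 RPKM in the mTEChi and 28.5 RPKM in the mTEClo library (0.18), above every collagen proper in the mTEChi library.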
